A study of Xenopus laevis with 8 samples.

Results

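The comparison described here set hGR-XEBF3 with hormone against hGR with hormone in *Xenopus laevis* animal caps, by subtracting, for each of 4 replicate experiments, the ratio of a "Control for DEX" array (DEX control) from the ratio of the "Active EBF" array (active EBF3) of the same number. It used all 8 arrays of the series, 4 of each kind. On active EBF3 arrays, Cy3 held cRNA of caps injected with 1 ng of hGR-XEBF3 mRNA and treated with 30 μM dexamethasone (DEX) for 4.5 hours. On DEX control arrays, Cy3 held cRNA of caps injected with 0.4 ng of hGR mRNA, the hormone-responsive part of the human glucocorticoid receptor alone, with the same hormone treatment. On both kinds of array, Cy5 held cRNA of untreated caps with hGR-XEBF3. All caps also received 0.2 ng of Noggin mRNA and were cut at stage 9, the blastula. Both kinds of array had the same dye orientation, so a dye effect common to the arrays of a pair drops out of the difference. The arms differ in the amount of mRNA as well as in EBF3. The ratio on DEX control arrays, called the hormone arm here, likewise compares different injected mRNAs as well as hormone with none. A paired difference is thus the log2 ratio of Cy3 to Cy5 on the active EBF3 array minus that on the DEX control array of the same number, which is above 0 where active EBF3 gave the higher level. It was available for 21197 of 21495 probes.

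EBF3 belongs to the COE family of transcription factors (Collier, Olf and EBF), which bind DNA as dimers and carry a helix-loop-helix dimerization domain. Vertebrate *ebf* genes are expressed in differentiating neurons, downstream of proneural bHLH factors, and *Ebf1* is required for B cell development in mice. Fused to hGR, such a factor is held inactive until DEX is added, so that its targets can be followed from a chosen time. Animal caps are prospective ectoderm of the blastula. Left alone they form epidermis, and Noggin, a BMP antagonist, turns them to neural tissue of anterior character.

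With the hormone arm subtracted, 549 probes were called higher with active EBF3 (2.59% of those tested) and 363 lower (1.71%), at an adjusted p under 0.05 in limma and a mean change of at least 2-fold. All 912 had the same sign in 4 of 4 pairs, which is largely a by-product of the thresholds on those same 4 values. The rises were the larger changes: 288 probes rose and 110 fell at least 4-fold, and 140 rose and 25 fell at least 8-fold. The methods' t-test, run on the same differences, left 7 rises and 2 falls after adjustment, and normexp correction of the spot signals gave 385 and 221. Leaving out 1 pair gave fewer calls, with 222 rises and 56 falls without replicate 2, 345 and 162 without replicate 3, 380 and 226 without replicate 1 and 332 rises without replicate 4, where falls also lay between those counts. The median difference of all probes was -0.08, and 344 of the probes called higher and 179 of those called lower carried a gene name. In the text, a difference is a mean over the 4 pairs on the log2 scale with its standard error (SE, n = 4 pairs), adjusted p values are those of limma with Benjamini-Hochberg adjustment over 21197 probes, and values in pairs are given in the order of replicates 1 to 4. Gene names are those of the array design or the study, without the ending "-prov", and each probe is reported singly. Counts in function lists stand beside 4.3% of all probes called in either direction. That share includes dim probes, which were seldom called. The 10045 probes well above background in Cy3 throughout either arm held 503 of the 549 rises and 345 of the 363 falls. A list rich in bright probes can thus exceed 4.3% without standing out.

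The arrays were spread over 2 array designs, with 1 spot per probe in replicates 1 and 2 and 2 spots per probe in replicates 3 and 4, and the share of probes well above background in Cy3 lay between 51.8% and 58.9%. The probe for *Xebf-3* was not well above background in Cy5 on any array, although those caps had received hGR-XEBF3 mRNA. Whether the probe covers the injected sequence was not tested, so it does not serve as a check of the labels. Its Cy3 signal was well above background on 3 active EBF3 arrays and 0 DEX control arrays, and its paired differences were 2.01, 1.47, 4.66 and 4.55 (3.17 ± 0.64 SE, adjusted p = 0.0545 from limma), which did not pass the threshold. It was called with the array design as a term beside the pairs (adjusted p = 0.00411 in limma) and by Cy3 alone (0.0282). Of 20 probes for neural progenitor genes, 16 were well above background in Cy5 on all 8 arrays, among them *Sox-2*, *sox3* and *NCAM*. So were 22 of 30 probes for epidermis and ionocytes and 10616 of all 21197 probes tested. All caps had received Noggin, so detection alone does not test the neural label of the tissue. Keratin 8 and 18, the cadherin *CDH1* and the epidermal protease *Xepsin* were also well above background on all arrays, while the larval keratin probe *lk-A* was not on any. Nor were *Xath-3*, *bra3-A*, *Xwnt7B* and *FGFR3*, given below as not called, well above background in Cy5 on any array. For such dim probes a value near 0 does not show that the gene was unchanged.

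Neuronal transcription factors rose as a small set within a list of which most members were not called. Of 21 probes in the list, 5 were called higher and 1 lower, and the median was 0.00 against -0.08 for all probes. The probe *ebf2-A*, for a COE gene expressed in *Xenopus* primary neurons, had paired differences of 4.48, 4.69, 4.92 and 4.62. Its Cy3 signal was not well above background on any DEX control array. For such probes the change in Cy3 is also given as a bound, the mean signal of active EBF3 arrays over the lowest signal that could be measured on DEX control arrays, after scaling between arrays. It was not checked by a dye swap and, unlike the paired difference, is not divided by Cy5, which differed between the arms for some probes, as described further on. For *ebf2-A* it was at least 37.2-fold (difference 4.68 ± 0.11, adjusted p = 0.00129). A second *ebf2* probe, *ebf2-B*, rose by 2.59 ± 0.43. Next came *nscl-1*, a bHLH factor of early differentiating neurons, with 4.61, 3.88, 5.19 and 4.68 in the pairs (4.59 ± 0.22, at least 141-fold, adjusted p = 0.0018). The bHLH gene *neurod*, which drives neuronal differentiation, was read by *neurod1-A* in the list (3.64 ± 0.31) and by a candidate probe outside it, *neurod*, with 5.80, 3.91, 4.28 and 3.79 (4.44 ± 0.36, at least 758-fold). *Phox2a*, a homeobox gene of autonomic neurons, rose by 2.44 and was singled out after its value was seen. The proneural genes that act before *neurod* did not pass the test: *X-NGNR-1a* (neurogenin) was at -0.19, 0.19, 1.49 and 0.01 in the pairs, *X-NGNR-1b* averaged -0.01 ± 0.20 and *Xath-3* -0.13 ± 0.14. In replicates 1 and 2, Cy3 of both neurogenin probes was not well above background in either arm. With *Xath-3* dim as well, these values do not show that the proneural genes were unchanged. *Myt1.S*, a zinc finger factor that promotes primary neurogenesis in *Xenopus*, went the other way, with -1.89, -2.13, -4.21 and -2.96 in the pairs (-2.80 ± 0.40, adjusted p = 0.0229). Leaving out a pair ended the call of *ebf2-B* and of *myt1.S* without replicate 1, 2 or 4 (adjusted p up to 0.127 and 0.104), and the list's 5 rises became 3 without replicate 2.

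**Figure D1:**
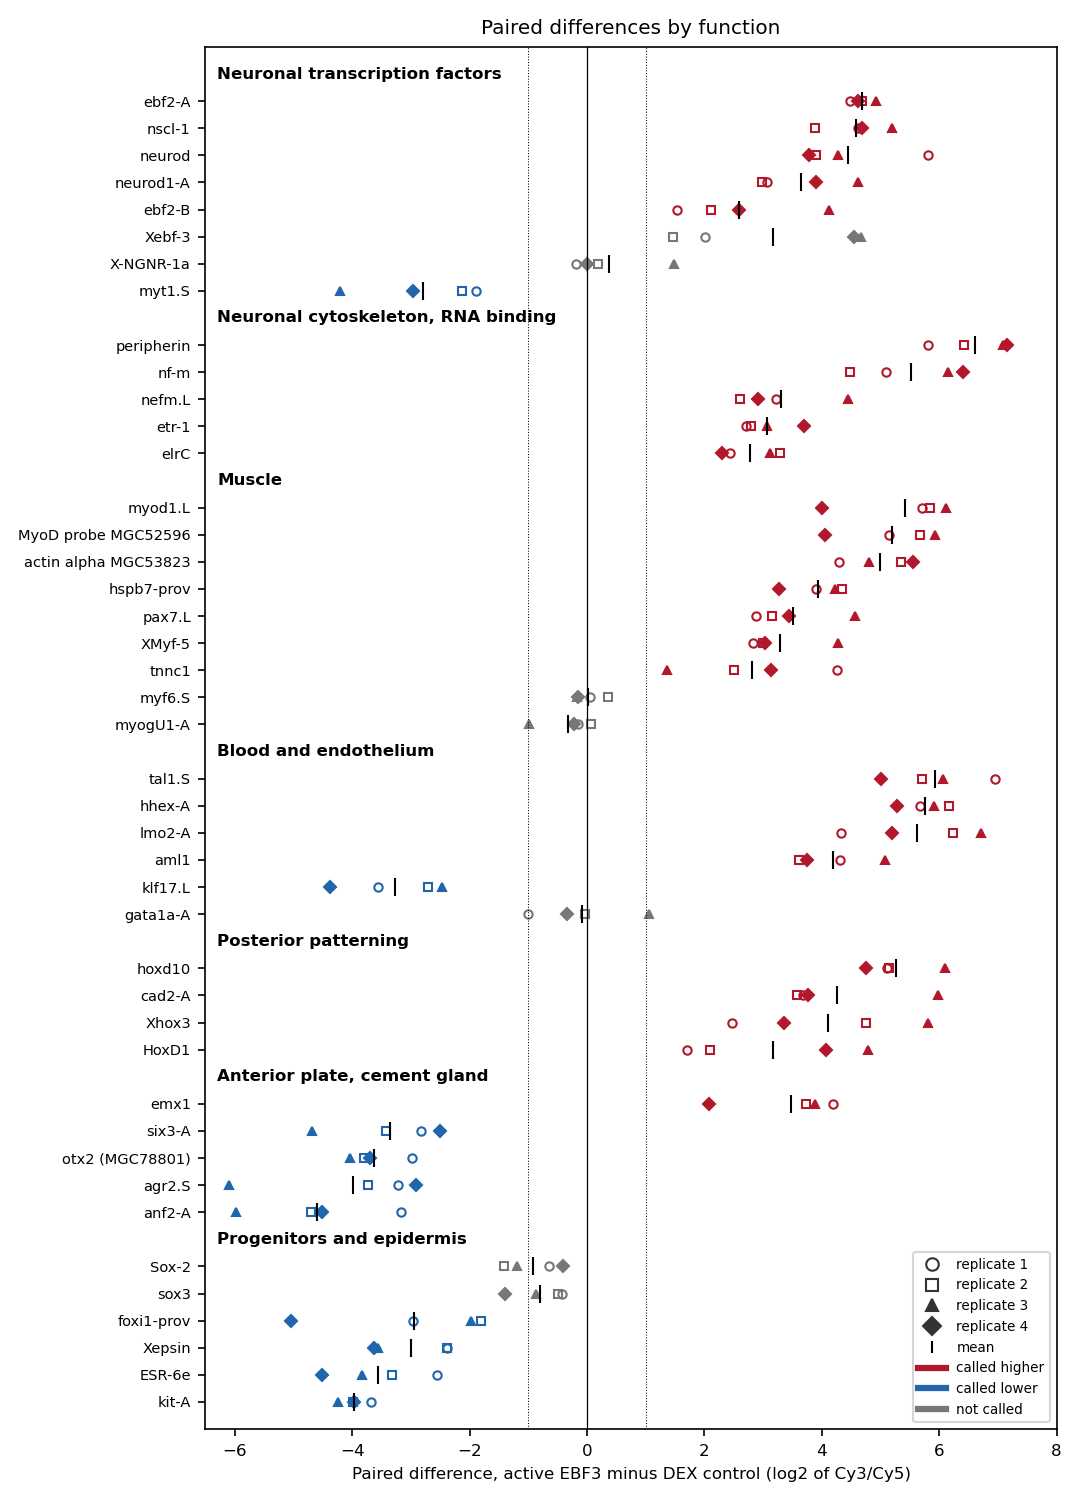
Paired differences (log2 of Cy3/Cy5, active EBF3 minus DEX control) of named probes, grouped by function. Each mark is 1 of 4 pairs (open circle and square, replicates 1 and 2; filled triangle and diamond, 3 and 4), the black tick is their mean, dotted lines mark a 2-fold change, and red, blue and grey stand for called higher, called lower and not called. *Peripherin* lies between 5.81 and 7.16 and *anf2-A* between -5.97 and -3.18. The probes *X-NGNR-1a*, *myf6.S* and *gata1a-A*, dim on some or all arrays, lie around 0.

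Structural genes of neurons rose as well. Of 19 probes for the neuronal cytoskeleton and neuronal RNA-binding proteins, 8 were called higher and 1 lower (median 0.29). *Peripherin*, an intermediate filament of peripheral neurons, was read by a candidate probe outside the list. It had the largest paired difference of any called probe, with 5.81, 6.42, 7.08 and 7.16 in the pairs (6.62 ± 0.26, adjusted p = 0.00137). By Cy3 alone its difference of 8.15 was exceeded by those of MGC52596 (11.66), *neurod* (10.75), *myod1.L* (9.57) and *nscl-1* (8.42). The probe *nf-m*, for the medium neurofilament subunit, followed with 5.09, 4.47, 6.14 and 6.41 (5.53 ± 0.35, at least 78.4-fold), and another probe for it, *nefm.L*, rose by 3.30 ± 0.32. The light neurofilament probe *nefl.L* (1.39), the alpha-internexin probe *ina-B* (2.61) and *nes.S*, listed as tanabin, an intermediate filament protein related to nestin (2.45), were also called higher, and are named after their values were seen. So were *msi1.L* (1.43) of the RNA-binding Musashi family and, by rule, *etr-1* (3.06 ± 0.19) and the Hu family member *elrC* (2.78 ± 0.20), which mark cells that leave division to become neurons. The fall was that of a *nova1*-like splicing factor probe, MGC53786, at -1.36. Other probes for the same families did not pass: *ina-A* was at 0.05 ± 0.21 and *plasticin*, a fish and frog relative of peripherin, at -0.30 ± 0.38, and *stmn2.L* and *elrD* were at -0.12 and 0.09. The call of *nefm.L* was lost without replicate 1 (adjusted p = 0.0503), and the list's rises numbered 5 without replicate 2.

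Among 21 probes for synaptic proteins, receptors and neuropeptides, 1 was called higher and 2 lower (14.3% called, against 4.3% of all probes), with a median of 0.00. The rise was *tph1*, tryptophan hydroxylase, the first enzyme of serotonin synthesis, with 3.35, 2.67, 6.26 and 4.60 (4.22 ± 0.60, at least 12.6-fold). The falls were probes for somatostatin precursors, *Sst* (-1.87 ± 0.27) and *sst.1.S* (-1.53 ± 0.30). For *sst.1.S*, Cy3 was not well above background on any active EBF3 array, and the bound was at least 2.75-fold lower. The vesicle and membrane fusion genes *snap25* (0.24 ± 0.28) and *syp-A* (-0.04 ± 0.13) did not pass, and 14 of the 21 probes were not well above background in Cy3 throughout either group. All 3 calls in this list were lost without replicate 1, 2 or 4 (adjusted p up to 0.103 for *tph1*, 0.116 for *Sst* and 0.191 for *sst.1.S*), and when signals were taken from the spot and background readings with normexp correction. The list of ion channels split evenly, with 3 of 29 probes higher and 3 lower. A candidate potassium channel probe outside the list, *kcnk5*, rose by 4.77 and kept its call in all 4 fits that left out a pair. *Kcna4.S*, a voltage-gated potassium channel, rose by 3.40 ± 0.42 and *kcnk5.S*, a 2-pore potassium channel, by 1.66 ± 0.16. The inward rectifier *Kcnj1* had -2.10, -3.36, -3.32 and -3.47 in the pairs (-3.06 ± 0.26, adjusted p = 0.00552), and a potassium channel of the 2-pore family, MGC53410, fell by 1.73. The sodium channel subunit *scn3b* (-1.65), named after its value was seen, was also called. None of the 6 calls remained without replicate 2, and in fits without a pair the adjusted p reached 0.0837 for *kcna4.S*, 0.0518 for *Kcnj1*, 0.0562 for *kcnk5.S* and 0.151 for MGC53410.

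The study picked 14 genes from its active EBF3 arrays as candidate neuronal targets, so their rise on these arrays is not independent evidence. What the subtraction adds is the hormone arm. Of the 14, 13 had a value on all 8 arrays, all 13 were called higher, and their differences lay between 3.47 and 6.62. Besides those above, the protocadherin *pcdh8*, a cell adhesion gene, had 5.61, 6.94, 6.71 and 5.57 in the pairs (6.21 ± 0.29). The homeobox gene *hoxd10* was at 5.27 ± 0.24, the orphan nuclear receptor *nr2f2* at 5.0 ± 0.30, the ligand *wnt3a* at 4.99 ± 0.24 (at least 33.2-fold), the potassium channel *kcnk5* at 4.77 ± 0.21, and *greb1*, known in human cells as an estrogen-induced gene, at 4.76 ± 0.20. *Aml1*, a runt domain factor of blood and sensory neurons, was at 4.19 ± 0.27 and the forebrain homeobox gene *emx1* at 3.47 ± 0.37. The homeobox gene *en-2* of the midbrain and hindbrain boundary varied most, with 1.83, 2.99, 5.94 and 5.61 (4.09 ± 0.76, at least 7.69-fold, adjusted p = 0.0446 in limma). On active EBF3 arrays the log2 Cy3 signal of *en-2* was 8.10, 8.78, 8.86 and 8.44. Its log2 Cy5 signal there, not well above background on any array, was 6.07, 5.11, 2.15 and 2.38. Its call was lost without any 1 of the pairs (adjusted p up to 0.15), and that of *emx1* without replicate 1 or 2 (up to 0.0765). The candidate *activin beta b*, a TGF-beta ligand subunit, had no value on active EBF3 array 1 and was not tested. In the other 3 pairs its difference was 5.26 ± 0.60 (SD, n = 3), with 3.87, 5.13 and 4.23 on active EBF3 arrays and -0.71, -0.41 and -1.43 on DEX control arrays. In whole embryos, the study did not find *en-2*, *hoxd10*, *nr2f2* and *wnt3a* consistently raised by EBF3. *En-2* and *hoxd10* were lowered in part of the embryos, *nr2f2* was raised in some and lowered in others, and *wnt3a* was unchanged. The study held these genes to be unlikely EBF targets in the embryo at the stage examined. It found the other candidates raised by EBF2 and EBF3 and lowered by knockdown of both.

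Regulators of the muscle lineage rose as well. Of 12 probes, 4 were called higher and 0 lower (median 0.54), and the 4 were called in every fit that left out a pair. *MyoD*, the master regulator of skeletal muscle, was read by 2 probes. *Myod1.L* had 5.70, 5.84, 6.11 and 4.01 in the pairs (5.42 ± 0.37, adjusted p = 0.00332) and MGC52596 had 5.15, 5.67, 5.93 and 4.06 (5.20 ± 0.33). *XMyf-5*, which acts beside MyoD in early muscle, rose by 3.29 ± 0.27, and *pax7.L*, a gene of muscle precursors and dorsal neural tissue, by 3.51 ± 0.29. The probes for later regulators were near 0, with *myf6.S* at 0.02 ± 0.13 and *myogU1-A* (myogenin) at -0.33 ± 0.20. Both were dim. The log2 Cy3 signal of *myogU1-A* was 6.19, 5.92, 2.21 and 2.36 on active EBF3 arrays and 6.29, 5.69, 1.91 and 2.36 on DEX control arrays. For *myf6.S* it was 7.21, 5.87, 2.12 and 2.30, and 7.67, 5.62, 1.54 and 2.28. At such signals a value near 0 does not show that a gene was unchanged. Structural muscle genes moved less evenly. Of 15 contractile probes, 6 were called higher and 2 lower (median 1.22, but 0.31 with normexp correction and 0.17 in the authors' table). An actin alpha probe, MGC53823, led with 4.29, 5.34, 4.80 and 5.55 (5.0 ± 0.23, at least 12.4-fold), followed by the heat shock gene *hspb7* of heart and muscle (3.93 ± 0.20), the calcium pump *ca-p60a* (3.36 ± 0.35, at least 12.3-fold) and cardiac troponin C, *tnnc1* (2.82 ± 0.47). The falls, named after their values were seen, were a slow troponin I probe, MGC64405 (-1.71), and creatine kinase *ckm* (-1.09). The skeletal actin *acta1* was at 0.19, 1.03, 2.76 and 2.79 in the pairs and did not pass, but was called with the array design as a term beside the pairs (adjusted p = 0.0153 in limma). Troponin T3 (*tnnt3a*, 1.97) and a beta-tropomyosin probe, M92304 (1.35), were the remaining rises, named likewise. The contractile calls numbered 2 to 4 rises and 0 falls without a pair and 3 rises and 1 fall with normexp correction, and *tnnc1* lost its call without replicate 1, 2 or 4 (adjusted p up to 0.134) and *ca-p60a* without replicate 2 (0.0582).

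Early regulators of blood and endothelium were among the largest rises. Of 11 probes, 4 were called higher and 1 lower (median 0.52, but 0.07 with normexp correction and -0.06 in the authors' table). *Tal1.S* (SCL), which founds the blood lineage, had 6.95, 5.71, 6.06 and 5.01 in the pairs (5.93 ± 0.32, at least 67.2-fold). The homeobox gene *hhex-A*, of endothelium and anterior endoderm, had 5.67, 6.17, 5.91 and 5.28 (5.75 ± 0.17), and *lmo2-A*, the bridging partner of SCL in its DNA-bound complex, had 4.32, 6.23, 6.72 and 5.19 (5.61 ± 0.42). The remaining rise, named after its value was seen, was loc245963 (2.73), listed here for *egfl7*. The GATA factors that complete that complex in blood did not pass, with *gata1a-A* at -1.01, -0.03, 1.05 and -0.35 and *XGATA-2* at -3.15, 1.11, 2.45 and -0.63. The *gata1a-A* probe was not well above background in Cy5 on any array, so its values do not show that the gene was unchanged. *Klf17.L* (neptune), a Kruppel-like factor of blood and of ectoderm, fell by 3.28 ± 0.34, a call that was lost without replicate 1 or 2 (adjusted p up to 0.0597).

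Genes of the mesoderm and endoderm program rose in part. Of 37 probes, 8 were called higher and 1 lower (median 0.33). The rises included Mix-type homeobox genes, which are switched on by nodal signals and VegT in the gastrula: *Bix4* (4.47 ± 0.37, at least 23.2-fold), *bix2-A* (3.62 ± 0.27, at least 17.7-fold), *bix3-A* (3.49 ± 0.30) and *Mix.1*, with 2.67, 2.97, 4.09 and 3.76 in the pairs (3.37 ± 0.27). The other called rises, named after their values were seen, were *Xlim-1* (3.33), *foxa1* (3.04), the ligand *nodal2.L* (3.01) and *gata-5b* (2.61). The nodal inhibitor lefty (*lft-A*) fell, at -2.35. Other members did not pass: *bra3-A* was at 0.12 ± 0.14, *eomes.S* at 1.12 ± 0.32 and *Xsox17-alpha* at -2.17. The BMP-type ligand *admp.S* was at -2.09, -2.47, -6.86 and -5.21 in the pairs, below 0 in each, with an adjusted p of 0.0591 from limma. The call of *bix3-A* was lost without replicate 2 (adjusted p = 0.0509), and that of *lft-A* in each fit that left out a pair, which gave 0 falls in this list.

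Patterning genes along the head to tail axis moved in opposite directions. Of 19 Hox, Cdx and other posterior probes, 7 were called higher and 0 lower, and the list's median, 1.79, was the highest of all lists other than the candidates. *Hoxd10* had 5.11, 5.14, 6.09 and 4.75 in the pairs. The caudal gene *cad2-A* had 3.68, 3.58, 5.98 and 3.76 (4.25 ± 0.45), *Xhox3*, an even-skipped relative of the tail, had 2.48, 4.75, 5.80 and 3.35 (4.10 ± 0.56), and *HoxD1* rose by 3.16 ± 0.57. *XlHbox1*, *hoxa3a* and *cdx2.S*, named after their values were seen, were at 2.81, 2.46 and 2.05. *Xhoxc8* at 2.29 ± 0.78 and *Hoxd13* at 1.79 ± 0.36 did not pass, but with the array design as a term beside the pairs both were called (adjusted p = 0.0182 and 0.00722 in limma), as was *Hoxd13* with the arrays unpaired (0.0162) and by Cy3 alone (0.0114). *Hoxa2* and *Hoxc10* were at -0.14 and -0.13. Only 8 of the 19 probes were well above background in Cy3 throughout either group. Leaving out a pair left 1 to 4 rises, the fewest without replicate 2, and normexp correction left 4, with a median of 0.60. *HoxD1* lost its call without any 1 of the pairs (adjusted p up to 0.149), *cad2-A* without replicate 1 or 2 (0.0588) and *Xhox3* without replicate 2 or 4 (0.11).

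Of 20 probes for the anterior neural plate and cement gland, 8 were called lower and 2 higher, and the median of -1.40 was the lowest of all lists (-0.83 with normexp correction, -2.64 among probes well above background throughout either arm, a filter that favors probes that differ). *Anf2-A*, an Anf homeobox gene of the anterior-most ectoderm, had the largest fall of any called probe, with -3.18, -4.71, -5.97 and -4.51 in the pairs (-4.59 ± 0.44, adjusted p = 0.00778). *Agr2.S*, a secreted protein of the cement gland, the mucus organ at the front of the tadpole head, had -3.22, -3.72, -6.10 and -2.92 (-3.99 ± 0.55). The eye field and forebrain gene *six3-A* had -2.82, -3.43, -4.68 and -2.51 (-3.36 ± 0.37), and *otx1-A* (-3.02), the retinal homeobox probe *Rx1A* (-2.92), the small GTPase *ras-dva1.L* (-2.64), the hatching enzyme-like *astl2d.1.L* (-2.54) and *tcf3-A* (-2.27) also fell. A probe under a clone name that the study annotated as *otx2*, MGC78801, was outside the list but among the 10 largest falls: on active EBF3 arrays it was at -3.22, -4.08, -4.57 and -4.52, and on DEX control arrays at -0.23, -0.29, -0.53 and -0.82 (difference -3.63 ± 0.19, adjusted p = 0.00205). Not every anterior probe was called lower, and *emx1* and *Arx2* (2.81) rose. *Rx2A* was below 0 in each pair, at -1.24, -3.46, -4.93 and -1.26, and did not pass the threshold. It passed when only probes well above background were tested, with an adjusted p of 0.039 in limma. *Six6-A* was at -0.53 ± 0.22 and did not pass. Its Cy5 was not well above background on any array, and its log2 Cy3 signal on DEX control arrays was 6.32, 5.55, 2.09 and 2.34, too dim to show a fall. The list's falls numbered 4 and its rises 0 without replicate 1, and 3 and 1 without replicate 2. Calls were lost without replicate 1, 2 or 4 for *agr2.S* (adjusted p up to 0.105), without replicate 1 or 2 for *six3-A* (0.0812) and without replicate 2 for *anf2-A* (0.065), and that of MGC78801 was not.

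**Figure D2:**
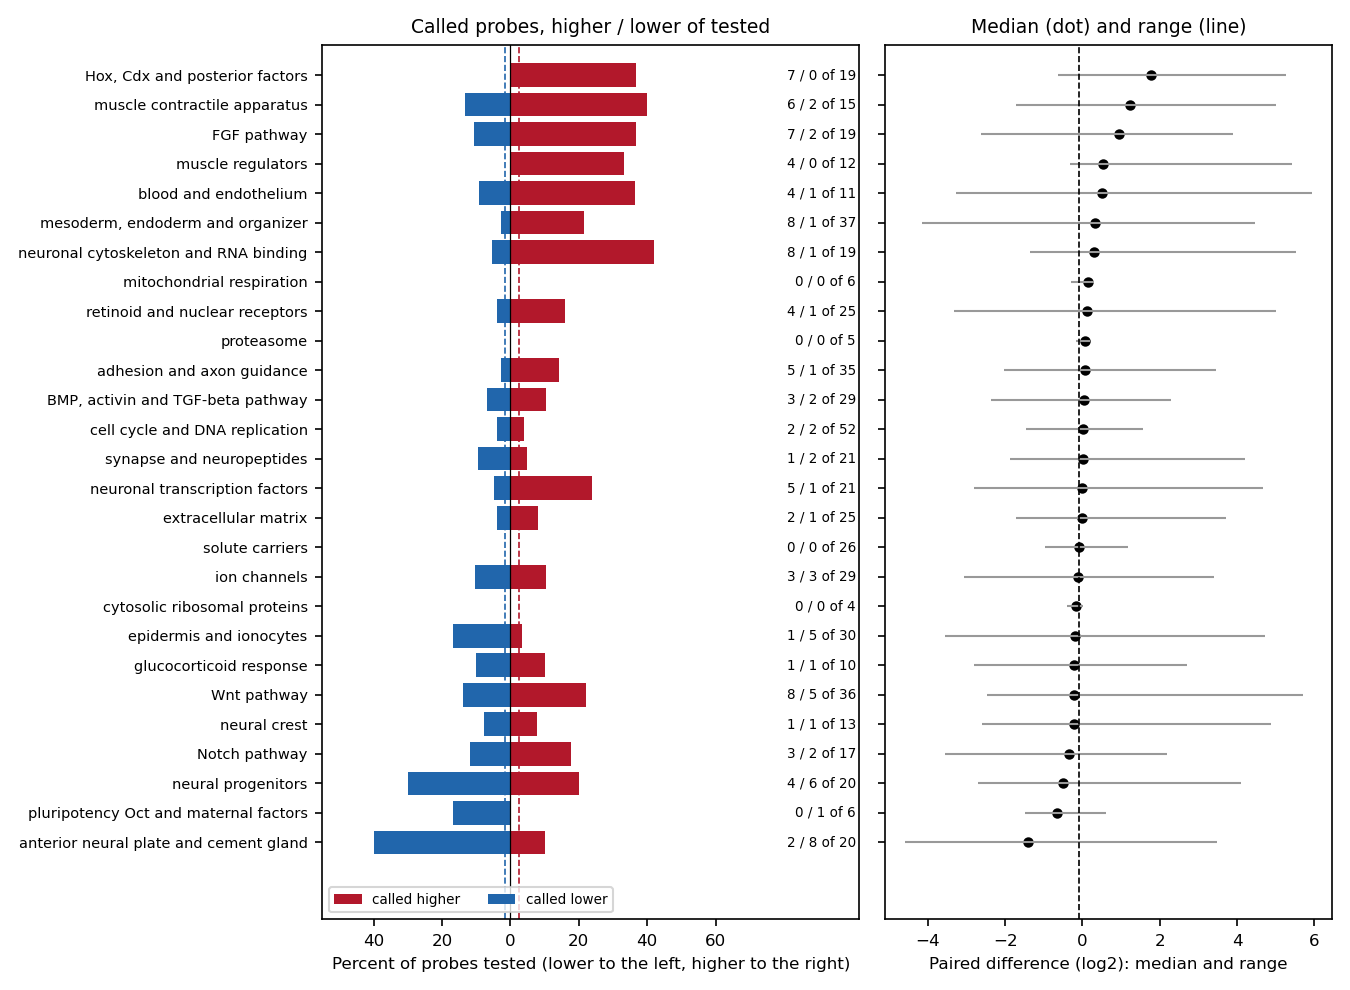
Function lists in the paired difference. Left, percent of tested probes called higher (red) and lower (blue) with the counts (higher / lower of tested) at the right and dashed lines at the share over all probes (2.59% and 1.71%). Right, the median (dot) and range (line) of each list, with a dashed line at the median of all probes (-0.08); posterior factors have the highest median (1.79) and anterior neural plate and cement gland genes the lowest (-1.40).

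Neural progenitor genes fell in part and epidermal regulators with them. Of 20 progenitor probes, 6 were called lower and 4 higher (median -0.51). The Iroquois gene *irx2-A* fell by 2.60 ± 0.28. *Opl* (*zic1*), *Xiro3*, *FoxD5a* and *SOX11*, named after their values were seen, were at -2.27, -2.17, -2.09 and -1.50. The pan-neural genes *Sox-2*, with -0.65, -1.42, -1.19 and -0.41, and *sox3*, with -0.43, -0.50, -0.86 and -1.40, were below 0 in 4 of 4 pairs and did not pass the threshold. *NCAM* was at -0.20. Rises were *en-2*, the *irx4* probe AF338157 (4.03 ± 0.20), *zic5-A* (2.41) and *pax2-A* (1.44 ± 0.28). The difference of *pax2-A* came from a ratio below 0 on DEX control arrays, and it was not called on active EBF3 arrays alone. Among 30 probes for epidermis and ionocytes, 5 were called lower and 1 higher (median -0.20). *ESR-6e*, an enhancer-of-split gene of epidermis, had -2.55, -3.32, -3.83 and -4.51 (-3.55 ± 0.32), *Xepsin* had -2.39, -2.39, -3.56 and -3.63 (-2.99 ± 0.28), and *foxi1*, a forkhead factor that specifies ionocytes, had -2.96, -1.81, -1.98 and -5.05 (-2.95 ± 0.57). The forkhead gene *fkh-5* (-1.37) and the cadherin probe L29057 also fell, and a carbonic anhydrase II-like probe, MGC52685, rose by 2.52 (at least 3.24-fold). The epidermal homeobox gene *dlx3-A* was at 0.04 ± 0.14. *XGATA-3* had 0.54, 6.64, 6.24 and 5.51 and did not pass (adjusted p = 0.074). Without a pair, progenitor rises numbered 1 and falls 0 to 4, and epidermal falls 1 to 3, the fewest without replicate 2. MGC52685 lost its call without replicate 2, 3 or 4 (adjusted p up to 0.139). *Irx2-A* lost its call without replicate 2 or 3 (adjusted p up to 0.053), *ESR-6e* without 2 (0.0556), *foxi1* without 1, 2 or 3 (0.155) and *pax2-A* without any 1 of the pairs (0.155).

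Of 13 neural crest probes, 1 rose and 1 fell (15.4% called, against 4.3% of all probes). *Sox8* had 3.20, 3.96, 7.11 and 5.23 (4.87 ± 0.65) and the inhibitor of bHLH factors *idb4* had -2.51, -1.22, -3.16 and -3.53 (-2.6 ± 0.39). The crest-inducing genes *sna* (-0.71 ± 0.30) and *snai2.S* (1.47 ± 0.65) did not pass. Of 6 pluripotency and maternal probes, *SALL4* fell (-1.50 ± 0.14) and *xoct-91* was at 0.61 ± 0.15. *Sox8* was not called without replicate 2 or 4 (adjusted p up to 0.0907), *idb4* without 1, 3 or 4 (0.104) and *SALL4* without 2 (0.0578).

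In the Wnt pathway, several ligands rose and several frizzled receptors fell. Of 36 probes, 8 were called higher and 5 lower (median -0.21). Ligands among the rises were *wnt3a*, with 4.31, 4.92, 5.01 and 5.72 in the pairs, *wnt-2* (3.84 ± 0.34) and *wnt-11* (2.91 ± 0.36), while *WNT11-R* (0.12 ± 0.23) and *Xwnt7B* (0.18 ± 0.13) did not pass. *Krm2* (kremen2), a co-receptor of the Wnt inhibitor Dickkopf, had 3.76, 5.37, 7.46 and 6.28 (5.72 ± 0.60). *Lef1.L* (1.48), *vangl2.L* (1.32), *GBP* (1.16) and the secreted inhibitor *WIF-1* (1.04) rose less, and are named after their values were seen. Falls, likewise, were the frizzled receptors *fz4* (-2.46), *xfz8* (-2.24) and *Fzd7* (-1.99), the repressor *tcf3-A* and the secreted inhibitor *sfrp2* (-1.84). Without a pair the list held 1 to 5 rises and 0 to 4 falls, the fewest without replicate 2. That fit ended the calls of *krm2* (adjusted p up to 0.0688, also lost without replicate 4), *wnt-2* (0.0533) and *wnt-11* (0.0832, also without 4), and *wnt3a* was called in all 4 fits.

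The FGF list had 7 of 19 probes called higher and 2 lower (median 0.95, but 0.31 with normexp correction, 0.29 in the authors' table and 0.58 without replicate 3). The ligands *fgf9-A*, with 4.02, 3.15, 4.44 and 3.94 in the pairs (3.89 ± 0.22, at least 33.8-fold), and *XFGF-20* (3.81 ± 0.47, at least 9.88-fold) rose, and so did genes that dampen the signal downstream, *dusp6.S* (2.96 ± 0.19) and the MAP kinase phosphatase MGC68682 (2.71 ± 0.16). *FGF-8b* (2.63), *flrt3* (2.06) and *flrt2* (1.55) were the remaining rises, and *FRL1* (-2.62), an EGF-CFC co-receptor for nodal, and *fgfr4.L* (-1.68) the falls, all named after their values were seen. The receptor *FGFR3* was at -0.11 ± 0.13. The rises numbered 3 without replicate 2 and 4 without replicate 4, and *XFGF-20* lost its call without 2, 3 or 4 (adjusted p up to 0.0918).

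In the Notch pathway, 3 of 17 probes were called higher and 2 lower (29.4% called, against 4.3% of all probes, median -0.35). The feedback inhibitor *nrarp.S* had 2.35, 2.17, 2.36 and 1.92 (2.20 ± 0.12), the ligand *X-Serrate-1* rose by 2.02 ± 0.19 and the receptor *notch1-A* by 1.59 ± 0.12. *ESR-6e* and the Notch-modifying enzyme *lfng.S* (-1.50) fell. The ligand delta1 (MGC52561) had -3.26, 1.28, 2.08 and -0.29 in the pairs, which scattered over both signs (-0.04 ± 0.90), and *rfng-A* was at -0.97 ± 0.33. *X-Serrate-1* lost its call without replicate 2 (adjusted p = 0.0576).

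Among 29 BMP, activin and TGF-beta probes, 3 were called higher and 2 lower (17.2% called, against 4.3% of all probes, median 0.04). The ligand *bmp7* had -1.64, -1.56, -3.05 and -3.24 (-2.37 ± 0.35) and *TWSG1* (twisted gastrulation), which modulates BMP binding to chordin, had -2.30, -1.89, -2.25 and -2.23 (-2.17 ± 0.11). Secreted proteins rose, the follistatin-related *xFRP* by 2.07 ± 0.11 and the Tsukushi probes *X-TSK-B2* by 1.64 ± 0.17 and *X-TSK-B1* by 1.63, the last named after its value was seen. A second *bmp7* probe, MGC68434, was at -0.46 ± 0.20 and the receptor *sax* at 0.87 ± 0.29. *Bmp7* lost its call without any 1 of the pairs (adjusted p up to 0.0856), with the arrays unpaired and with normexp correction, and *X-TSK-B2* without replicate 1 (0.0549).

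Of 25 retinoid and nuclear receptor probes, 4 rose and 1 fell (median 0.11). Among the rises were orphan receptors, *nr2f2*, *Nr2f1* (COUP-TF1, 3.20 ± 0.18) and *nr2e1-A* (tailless, 2.40 ± 0.27). The difference of *nr2e1-A* came mainly from a ratio below 0 on DEX control arrays. It was not called on active EBF3 arrays alone, and its call was lost without replicate 1 or 2 (adjusted p up to 0.0634 in limma). *Cyp26a1.S*, the enzyme that breaks down retinoic acid, had -2.20, -2.53, -3.91 and -4.64 (-3.32 ± 0.44), and *ALDH1A2*, which makes it, was at -0.34 ± 0.11. The fall of *cyp26a1.S* was lost without replicate 2, 3 or 4 (adjusted p up to 0.0799).

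Cell surface and matrix genes moved singly. Of 35 adhesion and guidance probes, 5 rose and 1 fell (17.1% called, against 4.3% of all probes, median 0.07). The largest rises in the list were *itga3-A* (integrin alpha 3, 3.46 ± 0.27) and the ephrin receptor *epha2-A* (2.52 ± 0.19). The candidate protocadherin probe *pcdh8*, which rose by 6.21, was outside the list. The chemokine receptor *cxcr4* rose by 1.53 ± 0.26, and a cadherin probe, L29057, fell by 2.04 ± 0.38. The other rises, named after their values were seen, were NF-protocadherin (AF043643, 1.52) and *efnb1-A* (1.33). *CDH1* was at -0.58 and *AF002983* (cadherin-11) at 1.07 ± 0.26. Of 25 matrix probes, *col9a3* (3.72 ± 0.18) and the lysyl oxidase probe AJ919279 (1.28 ± 0.16) rose and the hyaluronan synthase *HAS2* (-1.73 ± 0.22) fell, while *fibronectin* had 0.09, 0.13, 0.12 and 0.09 in the pairs. The calls of L29057 (adjusted p up to 0.153) and *cxcr4* (0.126), *HAS2* (0.0753) and AJ919279 (0.0728) were lost in at least 3 of the 4 fits that left out a pair.

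Of 52 cell cycle probes, 2 were called higher and 2 lower (7.69% called, against 4.3% of all probes), with a median of 0.00. Of the 52, 47 were well above background in Cy3 throughout either arm. Such probes held most of the calls over the whole array, so 7.69% is not read as an excess. The higher ones were Wee1 kinases, which hold back entry into mitosis: *WEE2A* had 1.73, 1.57, 1.60 and 1.38 (1.57 ± 0.11) and *Xe-Wee1A* was at 1.00 ± 0.19. The lower ones were cyclins, *ccne2* (-1.46 ± 0.22) and *ccnb3-A* (-1.02 ± 0.16). *WEE2A* was called in each fit without a pair, *ccne2* was lost without replicate 2, 3 or 4 (adjusted p up to 0.124) and *ccnb3-A* and *Xe-Wee1A* without any 1 (up to 0.121 and 0.152). Of 4 ribosomal, 5 proteasome, 6 mitochondrial and 26 solute carrier probes, limma called 0 in either direction, and 1 solute carrier passed the adjusted p alone, lower and under 2-fold. With so few probes in each of these lists, a count of 0 is near what the share over all probes gives. The medians were -0.15, 0.07, 0.14 and -0.10.

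On DEX control arrays, Cy3 and Cy5 differed in the injected mRNA as well as in hormone, so their ratio does not separate those effects. The hormone arm itself gave 0 probes called in either direction when the DEX control arrays were tested alone, although 4034 probes had an unadjusted p under 0.05 there. Without replicate 1, that test called 71 higher and 121 lower. By the mean alone, 50 probes were at least 2-fold higher and 94 at least 2-fold lower. On active EBF3 arrays alone 645 probes were called higher (3.04%) and 599 lower (2.83%). The active EBF3 arrays, the DEX control arrays and the paired difference share arrays, so the values are given side by side. Leaving out 1 active EBF3 array gave 322 (without replicate 4) to 731 rises and 151 to 744 falls, both the most without replicate 1. Of the 645, 479 were also called higher in the paired difference and 83 had a difference under 2-fold. Of the 599, 322 were also called lower and 204 had a difference under 2-fold. Another 70 probes were called higher and 41 lower in the difference without being called on active EBF3 arrays alone.

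Among probes called on active EBF3 arrays with a difference under 2-fold, the largest active EBF3 means were those of arrestin genes of photoreceptors. A probe annotated as S-arrestin, MGC84416, had -1.84, -2.53, -4.30 and -4.14 on active EBF3 arrays and -1.44, -2.71, -4.71 and -3.51 on DEX control arrays, so that the difference was -0.11 ± 0.21. *Sag.L*, another arrestin probe, had -1.68, -2.99, -3.50 and -2.57 on active EBF3 arrays and -1.59, -2.93, -4.09 and -2.26 on DEX control arrays (difference 0.03 ± 0.17). The natriuretic peptide receptor *NPR3* averaged -2.56 on active EBF3 and -1.57 on DEX control arrays, MGC82782 -2.50 and -1.65, MGC81892 -2.11 and -1.18, and the ubiquitin ligase *marchf8.L* -1.85 and -1.15. All 6 were called lower on active EBF3 arrays alone, and none passed in the difference. Cy3 was well above background on 1 of 4 arrays in each arm for MGC84416 and on 2 of 4 in each for *sag.L*, *NPR3* and MGC82782, so that for these 4 probes a change in Cy3 between the arms could not be measured in every pair. It was on all 8 arrays for MGC81892 and *marchf8.L*.

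Other calls came with a hormone arm away from 0. Of the probes called higher in the difference 20, and of those called lower 7, had a DEX control mean at least 2-fold from 0. *Nr2e1-A*, the tailless homolog of the forebrain and retina, averaged 0.39 on active EBF3 arrays and -2.01 on DEX control arrays, the transmembrane gene *tm6sf1* 0.14 and -2.44 (at least 2.94-fold), the muscle LIM protein gene *csrp3-A* 0.70 and -1.67, and *pax2-A* -0.14 and -1.58. In the other direction, *dph3.L* averaged -0.35 on active EBF3 arrays and 1.60 on DEX control arrays (difference -1.95 ± 0.30). None of these 5 was called on active EBF3 arrays alone. For *peripherin* and *krm2* the subtraction added to a rise: *peripherin* had 5.42, 5.03, 5.47 and 4.86 on active EBF3 arrays and -0.39, -1.39, -1.61 and -2.30 on DEX control arrays, and *krm2* averaged 4.18 and -1.54. *Tm6sf1* and *pax2-A* lost their calls without any 1 of the pairs (adjusted p up to 0.124 and 0.155), *csrp3-A* and *dph3.L* without replicate 2, 3 or 4 (0.143 and 0.128) and *nr2e1-A* without 1 or 2 (0.0634). A Cy5 signal that differs between the arrays of a pair also enters these values.

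**Figure D3:**
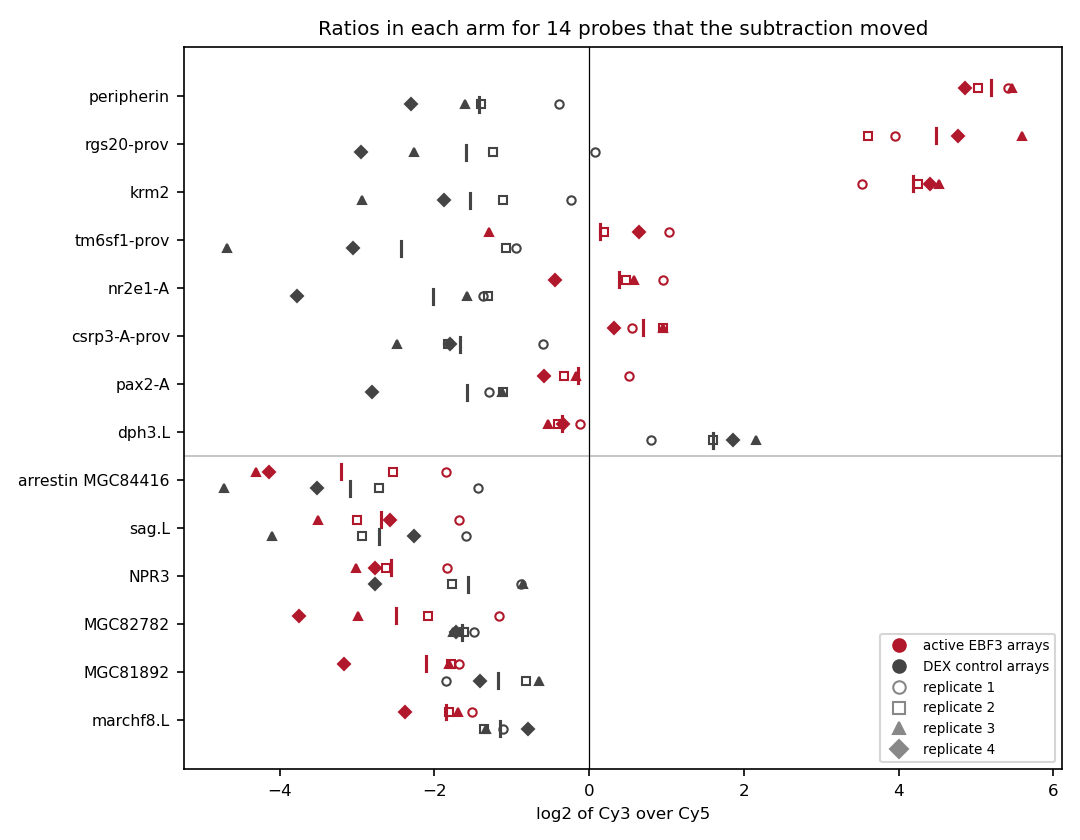
Log2 ratios of Cy3 to Cy5 on the 4 active EBF3 arrays (red, upper row of each probe) and the 4 DEX control arrays (dark, lower row), with vertical bars at the means. The 8 probes above the line were called in the paired difference, with a DEX control mean at least 1.42 from 0, and the 6 below it were called on active EBF3 arrays alone with a paired difference under 2-fold, such as 0.03 for *sag.L* and -0.85 for MGC82782.

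Glucocorticoid response genes were examined because both arms carried a hormone-binding domain and DEX. Of 10 probes, 1 was called higher and 1 lower (median -0.21). The glucocorticoid-induced leucine zipper probe *dsipi* had -1.85, -1.75, -3.54 and -2.30 on active EBF3 arrays and 0.11, 0.16, -0.14 and 1.66 on DEX control arrays, a difference of -2.81 ± 0.40 (adjusted p = 0.0224). Its call was lost without any 1 of the pairs (adjusted p up to 0.0844). The related probe *tsc22d3.S* was at -0.30 ± 0.27 and the clock gene *per2-A* at 0.12 ± 0.13. The rise was the phosphatase MGC68682, given above with the FGF genes.

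The untreated channel was not the same on both arrays of a pair for part of the rises. Per the labels, Cy5 held untreated hGR-XEBF3 caps everywhere, and over all probes same-numbered arrays had correlations of 0.993 to 0.996 in Cy5. For 74 of the 549 probes called higher (13.5%), the Cy5 signal was nonetheless at least 2-fold higher on active EBF3 than on DEX control arrays, against 0 of 363 called lower and 7 of 20285 not called. The log2 Cy5 signal of *neurod* was 9.39, 10.12, 10.76 and 11.15 on active EBF3 arrays and 7.18, 4.73, 0.90 and 2.35 on DEX control arrays. Its log2 Cy3 signal was 14.45, 14.92, 15.68 and 15.10 on active EBF3 arrays and 6.44, 5.62, 1.54 and 2.51 on DEX control arrays. The MyoD probe MGC52596 had Cy5 signals of 12.82, 12.42, 12.44 and 13.43 on active EBF3 arrays and 7.74, 6.83, 5.04 and 5.06 on DEX control arrays. Cy3 and Cy5 thus stood high together on the active EBF3 arrays for these probes, in each of the 4 pairs. Since Cy5 is the denominator, the paired difference of such a probe is smaller than the difference in Cy3. Set against each other directly after scaling, the Cy3 signals differed by 10.75 for *neurod* (paired difference 4.44), 11.66 for MGC52596 (5.20), 9.57 for *myod1.L* (5.42), 8.42 for *nscl-1* (4.59) and 7.30 for *XMyf-5* (3.29). For *peripherin* the values were 8.15 and 6.62, and for the falling probes *kit-A* and MGC78801 they were -3.97 and -3.97, and -3.57 and -3.63. What raised Cy5 on these arrays was not tested. Compared by Cy3 alone, 634 probes were called higher and 430 lower over the whole array.

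**Figure D4:**
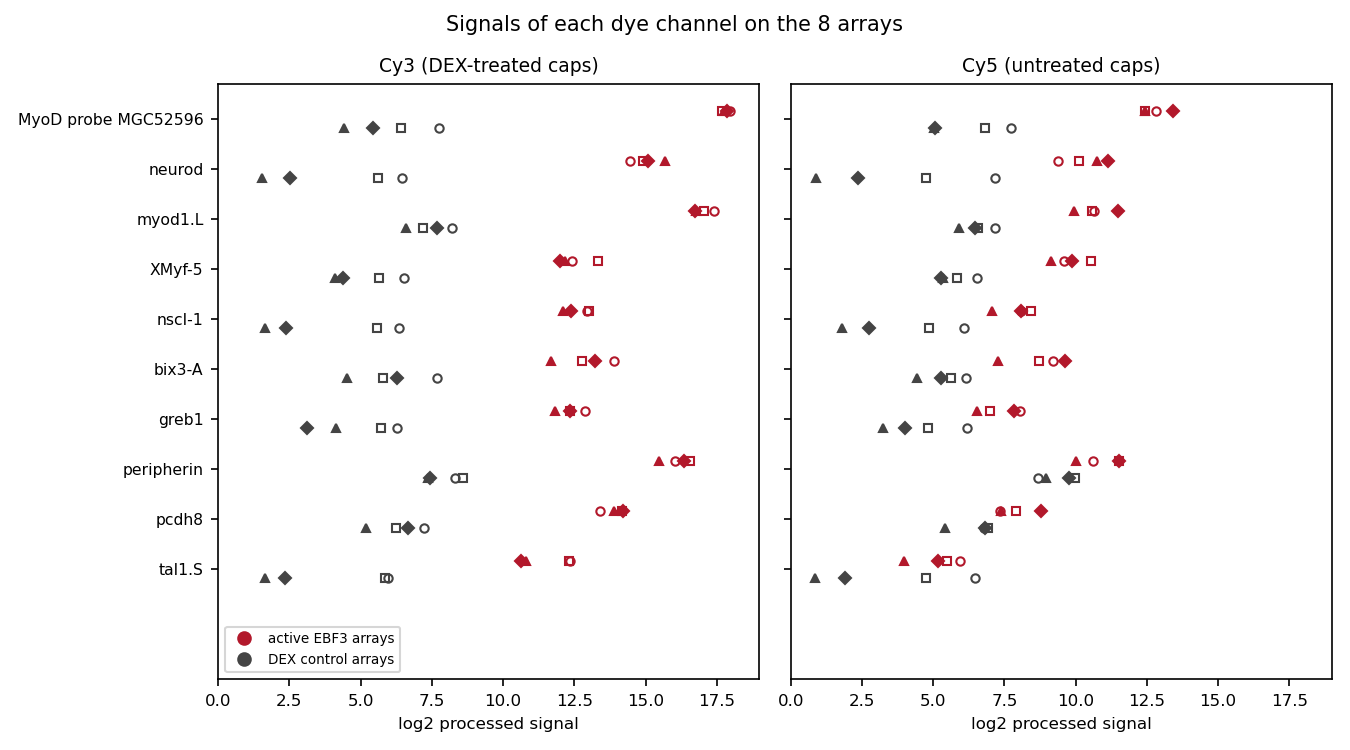
Log2 processed signals of the Cy3 channel (left, DEX-treated caps) and the Cy5 channel (right, untreated caps) for 10 probes called higher, on active EBF3 arrays (red, upper row) and DEX control arrays (dark, lower row), with circles, squares, triangles and diamonds for replicates 1 to 4. In Cy5, MGC52596 lies between 12.42 and 13.43 on active EBF3 arrays and between 5.04 and 7.74 on DEX control arrays, although both hold untreated caps.

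The largest falls outside the lists named the receptor Kit. *Kit-A* had -3.69, -3.99, -4.24 and -3.96 in the pairs (-3.97 ± 0.12, adjusted p = 0.00129), the narrowest spread among the 10 largest falls, and *kl1-A*, a Kit homolog, had -3.25, -3.27, -4.36 and -3.72 (-3.65 ± 0.22). Kit is the receptor of stem cell factor and acts in blood, pigment and germ cells of vertebrates. MGC78972, which the study annotated as *rassf7*, a gene of mitotic spindle function in *Xenopus* neural tissue, fell by 3.83 ± 0.31. Expressed sequence tags BP687487 and BP696612, both from an anterior neuroectoderm library, fell by 3.61 ± 0.41 and 3.40 ± 0.27, the first a call lost without replicate 2 or 3 (adjusted p up to 0.0768). Among the 10 largest rises, *rgs20*, a regulator of G-protein signaling, had 3.88, 4.84, 7.85 and 7.71 (6.07 ± 0.77, at least 33.9-fold), with a call lost without replicate 2, 3 or 4 (up to 0.0775), and the forkhead gene *xfd-13* had 4.25, 5.49, 6.55 and 5.65 (5.48 ± 0.37). Probes with no gene name, with accession tags BX847839 and BX849057 in the array design, were at 5.51 ± 0.52 and -3.59 ± 0.23.

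Array design and replicate cannot be told apart beyond 2 pairs per design. Over the 549 rises the median was 1.95 on the design of replicates 1 and 2 and 2.19 on that of replicates 3 and 4, and over the 363 falls -1.32 and -1.77. The difference was larger on the design of replicates 3 and 4 for 336 of the rises and 312 of the falls. On each design alone, 521 and 523 of the rises, and 279 and 352 of the falls, were at least 2-fold in the same direction. The lowest Cy3 signal well above background on DEX control arrays was 214, 112, 14.1 and 24.6 in replicates 1 to 4. For probes with a dim channel, the size of the difference depends on such limits.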

How the data were processed

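Gene expression in animal caps was read on Agilent arrays with 2 dyes, 4 active EBF3 and 4 DEX control. The authors deposited Feature Extraction output, whose processed signals are intensities after background subtraction and dye normalization (LOWESS) on each array, with software 8.1.1.1 for replicate 1 and 9.1.3.1 for the others, scanned at 10 μm (replicates 1 and 2) or 5 μm (3 and 4) per the file headers. The authors' deposited table gives log10 ratios of Cy3 to Cy5, and it was checked to hold the scanner's log10 ratio with its sign reversed. Only spots of gene probes marked uniform were used, replicate spots entered as their mean, and ratios were not scaled between arrays, while Cy3 levels compared between arrays (the bounds and the direct Cy3 comparison) were, by quantiles of average intensity. The 4 paired differences were tested against 0 with limma 3.58.1 in R 4.3.3 (lmFit with an intercept, eBayes, two-sided). Precision is limited by the number of arrays and, near background, by signal.

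Replicate numbers pair the arrays: after removal of group means, same-numbered arrays had correlations of 0.591, 0.493, 0.366 and 0.574 over 21197 probes, and others between -0.339 and 0.0483. The methods describe 4 biological replicate experiments. Members and function lists were chosen with earlier results of these data known. Named genes are the study's 14 candidates, the 10 largest rises and falls, up to 4 called and 2 canonical uncalled probes per list, *ebf*, *noggin*, *neurogenin*, *delta1* and *tsc22d3* probes, and the probes most moved by the subtraction. The *noggin* probes *nog2* and *nog-A*, whose cover of the injected mRNA was not tested, were at 1.13 and 0.73 and not called, though *nog2* was with the array design as a term (adjusted p = 0.0444 in limma). In simulated data of 21197 probes for the paired difference, the test recovered 47 of 50 changes of 8-fold, 78 of 100 of 4-fold and 9 of 50 of 2-fold, and made 3 false calls. The simulated noise was independent and normal, centered on 0, with the spread of each probe. The real differences had a median of -0.08, with 38.96% above 0. The simulation therefore does not measure the share of false calls in the real data. Alternatives changed the pairing, array design, centring, background correction, filter on dim probes, source table, test and replicates. A description of promoter motifs was not run. Some probes that the rule names are not reported here.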

Additional observations from a re-analysis of the deposited data

Results flagged for a closer look

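For 7 of 163 named probes, 1 pair lay far from the other 3 by Dixon's criterion, which chance meets in about 1 in 20 groups. In replicate 3 the paired difference was 6.13 for *nr2f2* (others 4.55 to 4.68), 4.28 for *XMyf-5* (2.84 to 3.04), 5.90 for *Bix4* (3.99 to 4.00) and 5.98 for *cad2-A* (3.58 to 3.76). In replicate 1 it was -2.10 for *Kcnj1* (-3.47 to -3.32) and 0.07 for the ribosomal probe MGC53393 (-0.02 to 0.00), and in replicate 4 it was -1.59 for *marchf8.L* (-0.46 to -0.37).

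The Cy5 channel, labeled as untreated caps throughout, differed between active EBF3 and DEX control arrays for 2 probes called by limma in that channel. It was higher on active EBF3 arrays by 6.46 on the log2 scale for the MyoD probe MGC52596 and by 2.86 for the homeobox probe *nkx2-10-A* (adjusted p = 0.0151 for each, higher in 4 of 4 pairs), whose paired differences in the ratio were 5.20 and 3.45. The cause was not tested.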

How the results depend on the processing

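No probe among the 103 named and called ones changed sign under any alternative, but most alternatives could not change a sign. The unpaired fit, the design term, the t-test and the filter on dim probes keep the same mean. The authors' table holds the same ratios. Called probes had the same sign in all 4 pairs, which fixes the sign when 1 pair is left out. Against 549 rises and 363 falls, the counts were 513 and 306 with no replicate block, 665 and 440 with the replicate block and the array design as a term, 561 and 361 with each array centered, 578 and 423 among 10045 probes well above background and 502 and 438 in the authors' table, and 9 of the 103 named calls were lost with no block. Signals from spot and background readings (normexp, then loess) gave 385 and 221, with 88 of the 103 kept. The methods' t-test on the same 4 differences gave 7 and 2 after Benjamini-Hochberg adjustment, from 644 and 448 at an unadjusted p under 0.05 and 2-fold, and kept 1 of the 103. Leaving out 1 pair gave 222 to 380 rises and 56 to 226 falls, lowest without replicate 2, and 49 of the 103 were called in all 4 such fits, with no mean moved by over 1.31 times. On active EBF3 arrays alone, normexp gave 326 and 275 and leaving out a replicate 322 to 731 and 151 to 744. On DEX control arrays alone, the filter on dim probes gave 4 and 5, and leaving out a replicate 0 to 71 and 0 to 121, the highest without replicate 1. Fits without a replicate hold fewer arrays, and for the other settings the cause was not tested. Signal over background limits the size of rises: for 89 of them Cy3 was not well above background on any DEX control array. Medians of function lists moved too: among probes well above background, they were 2.44 for neuronal transcription factors, 1.94 for the neuronal cytoskeleton, 1.77 for muscle regulators, 3.01 for posterior factors and 0.97 for mesoderm and endoderm. The filter kept a probe if Cy3 was well above background on all 4 arrays of either arm. Of 9 neuronal transcription factor probes kept, 6 were bright on all DEX control arrays, and of 8 posterior ones, 5. The filter thus favors probes that differ between the arms, so these medians do not test the lists.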
